A study of Mus musculus with 9 samples.

Results

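The suprabasal differentiation keratins are the intermediate filament proteins that stratified squamous cells make after they leave the basal layer. The group was set by gene symbol, and every probe set of the array annotated to Krt1, Krt10, Krt4, Krt13, Krt78, Krt79 or Krt80 alone was taken. This gave 7 genes of the 13637 tested, carried by 10 probe sets, and all 10 passed the filter on dim probe sets. The tissues came from the mouse stomach, whose upper chamber, the forestomach, is lined by cornifying squamous epithelium, while the corpus below it is glandular. Squamous and glandular epithelium meet at the squamocolumnar junction, on the limiting ridge, which is the mouse counterpart of the human gastro-esophageal junction. Adjacent stripes of tissue, each 600 to 800 µm wide, were cut from the junction, the forestomach and the corpus of 9 untreated healthy female C57Bl/6 mice aged 3 months. Stripes of the same zone from 3 mice were pooled, so each of the 3 series (1, 2 and 3) holds 1 junction, 1 forestomach and 1 corpus RNA pool from the same animals, and each pool went on 1 Affymetrix array. The series are separate animals, so the spread between arrays of a zone holds biological and technical variation together.

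Keratins assemble as pairs of a type I and a type II protein. Basal squamous cells make Krt5 with Krt14. Cells that move up in the epidermis switch to Krt1 with Krt10, whereas those of the esophagus, tongue and other internal squamous linings switch to Krt4 with Krt13.

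All arrays had been scaled to the same level, with a trimmed mean signal of 200 and medians of 47.9 to 57.1 signal units. The 5 parietal cell markers summed to 23430.9 to 27443.5 at the junction, 164.5 to 1567.2 in the forestomach and 26378.8 to 36707.3 in the corpus. Of these 5, 2 were called lower at the junction than in the corpus, as were 11.8% of all genes, and 3 were not called. Atp4a and Atp4b, which made up most of the sums, were among those not called. The 4 surface mucous markers summed to 48209.5 to 58693.3 at the junction and 40758.5 to 64554.8 in the corpus, but were uneven across the forestomach stripes, with 1138.7, 22680.3 and 29065.5 in series 1, 2 and 3. Smooth muscle markers, 6 genes, summed to 23437.6 to 27986.2 at the junction, 51568.2 to 57510.0 in the forestomach and 20313.5 to 29807.9 in the corpus. The 7 squamous basal markers summed to 14807.7 to 20547.8 at the junction, 14746.5 to 17652.6 in the forestomach and 2370.6 to 2421.1 in the corpus. Most of that corpus sum came from the integrin genes Itga6, called lower in forestomach than in corpus (log2 difference -0.94), and Itgb4, not called, and the other 5 markers summed to 12327.1 to 17966.5 at the junction, 13434.6 to 16370.8 in the forestomach and 143.7 to 340.6 in the corpus. None of these markers was at 0 on any array. In bulk stripes like these, fewer cells of a type and less RNA per cell cannot be told apart, and the part of other cell types in the keratin values was not tested.

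By mean signal the suprabasal keratins were sorted into 3 groups for description. Krt1 with Krt10 was tested directly against Krt4 with Krt13 between junction and forestomach (exact permutation p = 0.1). That is the smallest p this test can give, so it could not pass 0.05. Krt1 and Krt10 had much the same signal at the junction and in the forestomach, 24.0-fold to 30.9-fold above the corpus. Krt4, Krt13, Krt78 and Krt80 were also far above the corpus, with a lower mean signal at the junction than in the forestomach. Of these, Krt78 and Krt80 passed the test between junction and forestomach, the Krt80 call being lost in 8 of 23 alternatives, while Krt4 (limma adjusted p = 0.152) and Krt13 (limma adjusted p = 0.292) did not. All 3 junction arrays lay below all 3 forestomach arrays for each of the 4, as they did for 29.8% of all genes tested. Krt79, the dimmest member at the junction, was the only one called higher there than in both other zones, 3.29-fold above the forestomach and 2.96-fold above the corpus.

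Krt1, the type II partner of the epidermal pair, had signals of 12024.6, 11451.6 and 14177.2 on the junction arrays of series 1, 2 and 3. Its forestomach signals were 11546.4, 12291.1 and 12002.5, and its corpus signals were 804.1, 315.2 and 457.1. Junction and forestomach overlapped, and every corpus array was far below both. The forestomach exceeded the corpus by 4.58 ± 0.28 on the log2 scale (SE, n = 3 each), a 24.0-fold difference, with a limma adjusted p of 1.80e-06. The junction exceeded the corpus 25.1-fold (limma adjusted p = 8.09e-06). All log2 differences here are on the log2(signal + 9.9) scale, and adjusted p-values are Benjamini-Hochberg values over all 13637 genes with a threshold of 0.05.

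Krt10, the type I partner of Krt1, had signals of 17209.5, 17650.5 and 20617.5 at the junction. The forestomach arrays gave 17928.3, 18026.5 and 18210.7, and the corpus arrays gave 990.3, 337.2 and 601.2. It was among the 6 brightest probe sets on each junction and forestomach array, and whether its signal still rises in proportion to RNA at that brightness was not tested. Forestomach signal was 30.3-fold above corpus (log2 difference 4.92 ± 0.31, SE; limma adjusted p = 2.32e-06), and junction signal was 30.9-fold above it (limma adjusted p = 1.03e-05).

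Between the junction and the forestomach, Krt1 differed by 0.066 ± 0.28 and Krt10 by 0.030 ± 0.31 on the log2 scale (SE, n = 3 each). The limma adjusted p-values were 0.869 and 0.947. The 95% intervals of the junction to forestomach ratio, not adjusted for the number of genes, ran from 0.671 to 1.63 for Krt1 and from 0.621 to 1.68 for Krt10. Ratios across those ranges remain possible with 3 arrays per zone, so equal levels were not shown. Both small differences changed sign without the third junction array, to -0.025 for Krt1 and -0.051 for Krt10.

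**Figure D1:**
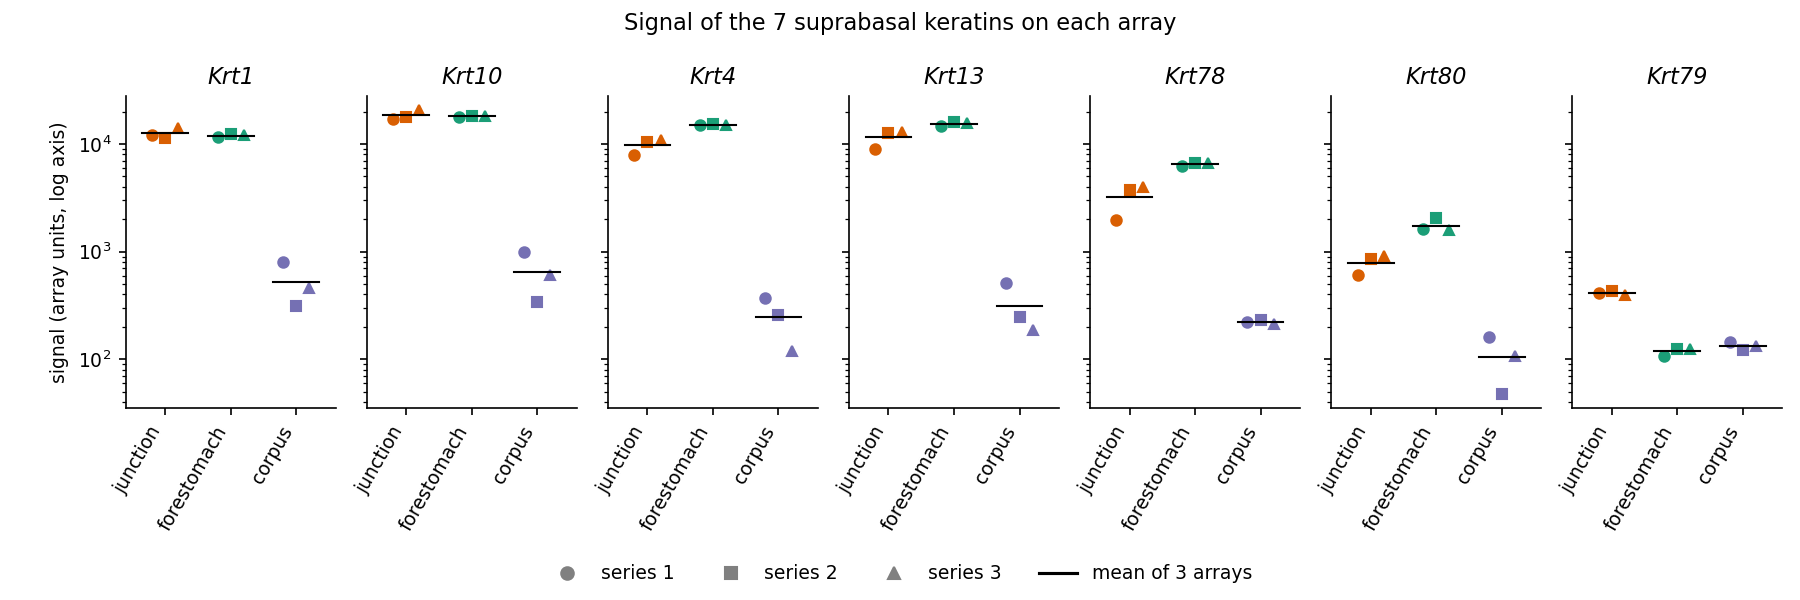
Signal of each suprabasal keratin on every array (log axis, signal units), by zone, with the marker shape giving the series and the bar the zone mean. Krt1 and Krt10 sit level between junction and forestomach, Krt4, Krt13, Krt78 and Krt80 are lower at the junction than in the forestomach on all 3 series, and Krt79 stands at 395.5 to 432.8 at the junction against 108.0 to 145.7 elsewhere.

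Krt4, the type II keratin of internal squamous linings, had signals of 7855.7, 10434.5 and 10896.8 at the junction on its brighter probe set. The forestomach gave 14922.9, 15408.1 and 15119.3, and the corpus gave 373.5, 255.6 and 118.7. The 3 zones did not overlap. Forestomach exceeded corpus 64.3-fold (log2 difference 6.01 ± 0.34, SE; limma adjusted p = 1.15e-06), and the junction exceeded corpus 40.9-fold (limma adjusted p = 1.03e-05). Between junction and forestomach the log2 difference was -0.65 ± 0.34, which did not pass the test (limma adjusted p = 0.152), and the interval of the ratio was 0.372 to 1.09. The error in that test is shared with the corpus arrays, whose dim signals spread more on the log scale. With only the 6 junction and forestomach arrays the same difference passed (limma adjusted p = 0.0110), and so it did without the third corpus array (limma adjusted p = 0.0181). In the other 21 of 23 alternatives it did not pass. Whether the spread of the corpus arrays accounts for this was not tested. A second probe set, on a dimmer scale, gave 5042.5, 7858.6 and 7375.6 at the junction, 11628.6, 12068.9 and 11767.4 in the forestomach and 290.1, 184.9 and 89.1 in the corpus, the same order on every series. Tested on its own, its junction minus forestomach log2 difference was -0.83 (limma adjusted p = 0.0942).

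Krt13, the type I partner of Krt4, had signals of 8973.6, 12696.9 and 12968.6 at the junction. In the forestomach it had 14665.7, 16100.4 and 15590.6, and in the corpus 508.5, 248.3 and 188.3. As for Krt4, no array of one zone reached the range of another. The forestomach was 51.8-fold above corpus (log2 difference 5.70 ± 0.32, SE; limma adjusted p = 1.01e-06) and the junction was 38.2-fold above it (limma adjusted p = 7.98e-06). The junction minus forestomach difference was -0.44 ± 0.32 (limma adjusted p = 0.292), with an interval of the ratio of 0.448 to 1.22.

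The 3 Krt13 probe sets differed in the size of that step. One gave 1859.9, 3030.3 and 2532.2 at the junction, 3351.9, 4229.3 and 3475.0 in the forestomach and 17.5, 59.4 and 33.8 in the corpus. The dimmest gave 565.8, 981.9 and 685.4 at the junction, 1567.6, 1849.0 and 1691.6 in the forestomach and 41.2, 21.4 and 25.1 in the corpus. Tested on their own, their junction minus forestomach log2 differences were -0.59 (limma adjusted p = 0.169) and -1.22 (limma adjusted p = 0.00337). Averaged over its 3 probe sets, Krt13 differed by -0.75 between junction and forestomach and passed the test (limma adjusted p = 0.00926). All 3 probe sets were lower at the junction on each series, and which of them tracks the transcript best was not tested. The brightest probe sets of Krt4 and Krt13, used in the tests, were among the 18 brightest on every forestomach array. Whether their signal still rises in proportion to RNA at that brightness was not tested.

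The balance of both pairs was followed within each array as the mean log2 value of Krt1 and Krt10 minus that of Krt4 and Krt13, in which only differences between zones can be read. It was 0.78, 0.30 and 0.52 on the junction arrays, -0.04, -0.08 and -0.05 on the forestomach arrays, and 1.02, 0.36 and 1.74 on the corpus arrays. Every junction array was above every forestomach array. The junction minus forestomach difference was 0.59 (exact permutation test, two-sided, p = 0.1, the smallest p that 3 arrays against 3 can give). Forestomach minus corpus was -1.10 (exact permutation p = 0.1) and junction minus corpus was -0.50 (exact permutation p = 0.3). The last value was -0.15 without the third corpus array and -0.84 without the second. Over these 3 comparisons the Benjamini-Hochberg values of the exact permutation tests were 0.15, 0.15 and 0.3, so none passed 0.05.

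**Figure D2:**
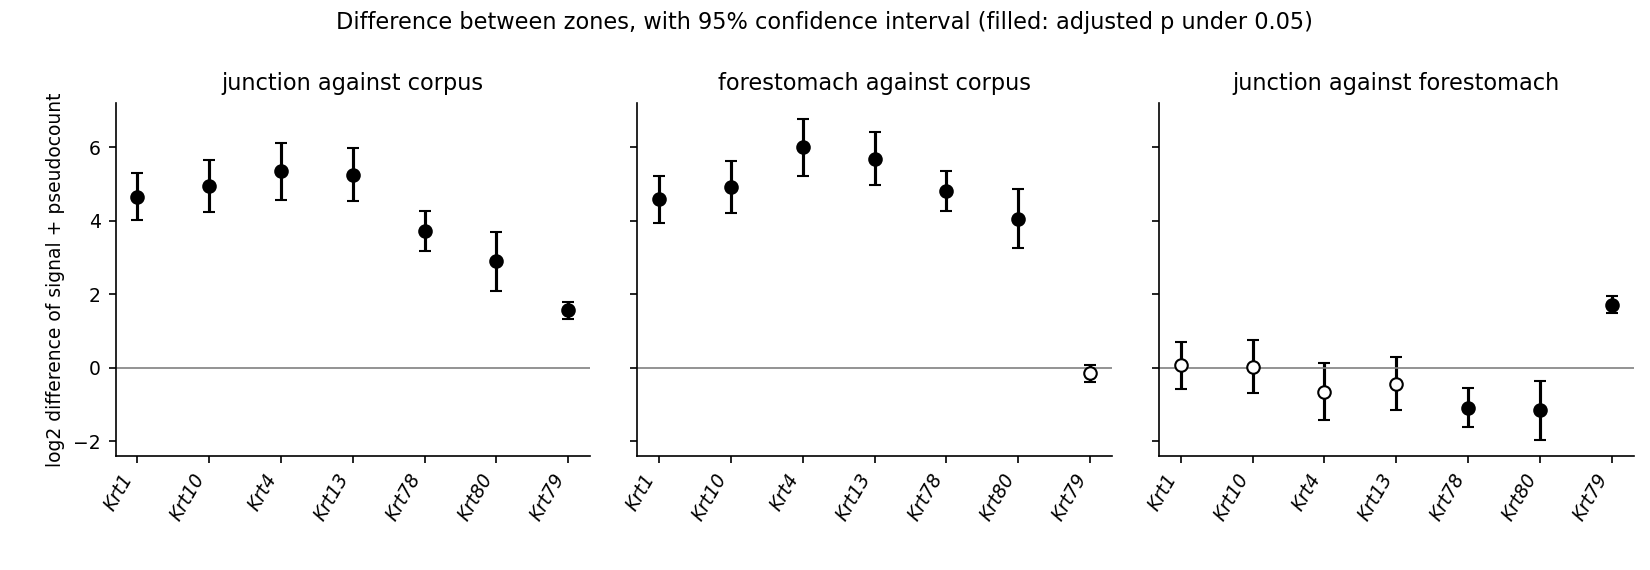
Log2 differences of the 7 keratins with 95% intervals, for forestomach minus corpus, junction minus corpus and junction minus forestomach. Krt79 is the member whose forestomach minus corpus interval spans 0, and the junction minus forestomach intervals of Krt1, Krt10, Krt4 and Krt13 span 0.

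Krt78 is a type II keratin. Its signals were 1952.1, 3723.3 and 3970.7 at the junction, 6204.9, 6648.6 and 6664.4 in the forestomach and 222.2, 233.2 and 211.1 in the corpus. It rose 28.1-fold in the forestomach over the corpus (log2 difference 4.81 ± 0.24, SE; limma adjusted p = 5.28e-07) and 13.3-fold at the junction over the corpus (limma adjusted p = 1.03e-05). At the junction it fell by 1.08 ± 0.24 on the log2 scale relative to the forestomach (SE, n = 3 each; limma adjusted p = 0.00588), so the junction signal was 2.12-fold lower. The call stood under every alternative run, the highest limma adjusted p being 0.0421.

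Krt80 is a type II keratin found, in human epithelia, near the desmosomes of differentiating cells. The junction arrays read 602.3, 847.8 and 907.5, the forestomach arrays 1610.0, 2044.2 and 1593.6, and the corpus arrays 161.3, 47.8 and 107.2. Forestomach was 16.6-fold above corpus (log2 difference 4.06 ± 0.35, SE; limma adjusted p = 1.58e-05) and junction was 7.47-fold above it (limma adjusted p = 0.000612). At the junction Krt80 fell by 1.16 ± 0.35 on the log2 scale relative to the forestomach (SE, n = 3 each; limma adjusted p = 0.0270), a 2.23-fold lower signal. That call was lost with the series number as a block (limma adjusted p = 0.0531). It was also lost without any 1 forestomach array (0.0532 to 0.0800), the first or second junction array (0.0908 and 0.0524), or series 1 or series 3 (0.0724 and 0.105), all limma adjusted p-values.

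Krt79 is a type II keratin known in mouse skin from the upper hair follicle and its opening. Its signals were 411.8, 432.8 and 395.5 at the junction, 108.0, 124.7 and 123.8 in the forestomach and 145.7, 120.8 and 134.0 in the corpus. All 3 junction arrays were clear of all other arrays, while forestomach and corpus overlapped. Mean signals were 413 ± 18.7 at the junction, 119 ± 9.39 in the forestomach and 133.5 ± 12.5 in the corpus (SD, n = 3 each). Krt79 rose 3.29-fold at the junction over the forestomach (log2 difference 1.72 ± 0.10, SE; limma adjusted p = 4.43e-06) and 2.96-fold over the corpus (log2 difference 1.56 ± 0.10, SE; limma adjusted p = 1.11e-05). Forestomach minus corpus was -0.15 ± 0.10 with a 95% interval of -0.38 to 0.075 (limma adjusted p = 0.214). Krt79 is in the group by its symbol, and its signal was not called higher in the squamous forestomach than in the glandular corpus.

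Counted together, 6 of the 7 keratins were higher in the forestomach than in the corpus, none was lower and Krt79 was not called. Among all genes 30.0% were called higher and 29.9% lower in that comparison. All 7 were higher at the junction than in the corpus, where 13.2% of all genes were called higher and 11.8% lower. Between junction and forestomach 1 was higher (Krt79), 2 were lower (Krt78 and Krt80) and 4 were not called, against 21.5% of all genes called higher and 23.1% lower, so the share of members called there was near that background. The median log2 difference of the 7 genes was 4.81 for forestomach minus corpus, 4.65 for junction minus corpus and -0.44 for junction minus forestomach, beside medians over all genes of -0.01, -0.05 and -0.04. Krt79 was called above both neighbouring zones at once, as were 1.34% of all genes. The comparisons share arrays, so their counts are not independent of each other.

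Set series by series against its own forestomach pool, the junction signal varied between the members. Krt1 stood at 104%, 93.2% and 118% of the forestomach in series 1, 2 and 3, and Krt10 at 96.0%, 97.9% and 113%. Krt13 stood at 61.2%, 78.9% and 83.2%, and Krt4 at 52.6%, 67.7% and 72.1%. Lower still were Krt78 at 31.5%, 56.0% and 59.6% and Krt80 at 37.4%, 41.5% and 56.9%. On these probe sets series 1 had the lowest share for all of these 6 but Krt1, and series 3 the highest for all 6. The other probe set of Krt4 gave 43.4%, 65.1% and 62.7%, and those of Krt13 gave 55.5%, 71.7% and 72.9%, and 36.1%, 53.1% and 40.5%, so series 3 was not the highest on every probe set. Krt79 ran the other way, at 381%, 347% and 319%.

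**Figure D3:**
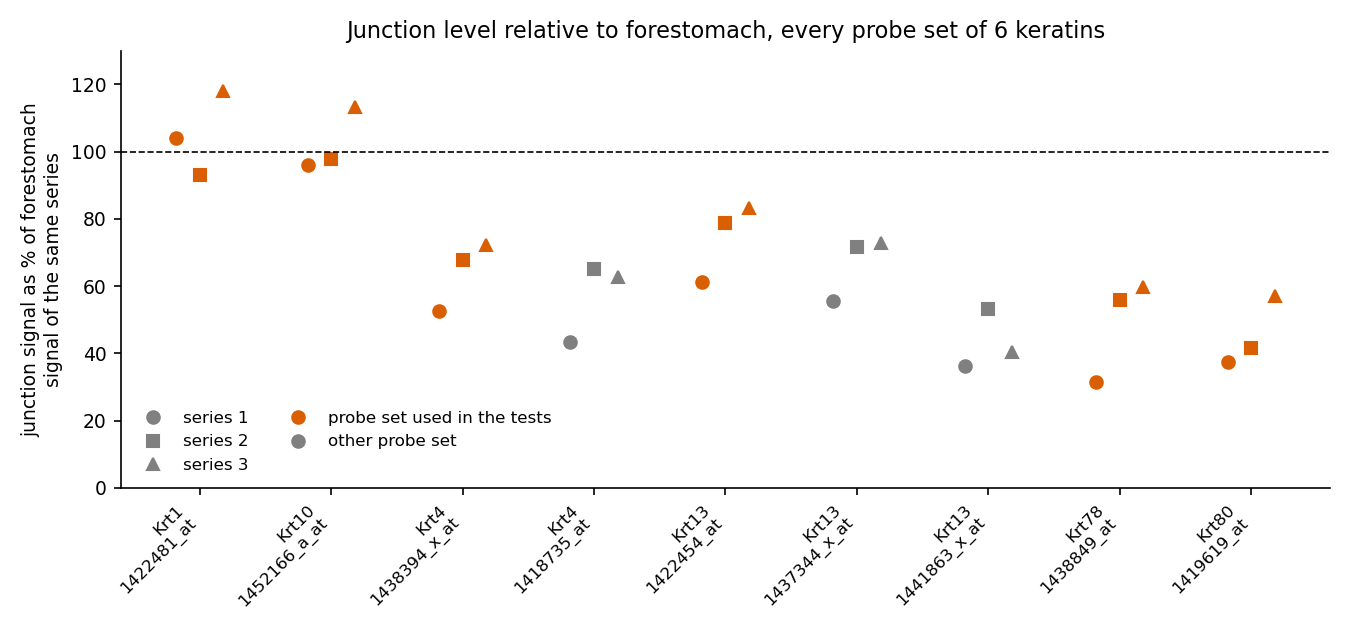
Junction signal as a percentage of the forestomach signal of the same series (percent), for every probe set of the suprabasal keratins except Krt79, with 1 marker per series. Orange marks the probe sets used in the tests and grey the others. On the tested probe sets Krt1 and Krt10 lie around 100%, Krt4 and Krt13 between 52.6% and 83.2%, and Krt78 and Krt80 between 31.5% and 59.6%. The grey markers of Krt4 and Krt13 run from 36.1% to 72.9% and overlap the range of Krt78 and Krt80.

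The junction value was also placed on a scale that runs from 0% at the corpus signal to 100% at the forestomach signal of the same series. The median of the 607 genes at least 4-fold higher in forestomach than in corpus was 28.8%, 42.7% and 46.0% in series 1, 2 and 3. Krt1 averaged 105 ± 13.0% and Krt10 102 ± 9.79% (SD, n = 3 series), higher than 96.5% and 96.2% of those genes. Krt13 averaged 73.8 ± 12.3% and Krt4 63.5 ± 10.7%, above 90.8% and 83.5% of them. Krt78 averaged 47.2 ± 15.9% and Krt80 41.5 ± 11.8%, above 66.7% and 55.5%. The 607 genes were picked on a high forestomach signal, which is the 100% end of this scale. They are not all squamous genes, and the 1 smooth muscle marker among them averaged 3.67%. The ranks therefore do not set the keratins apart from other squamous genes. Of the basal keratins, Krt5 stood at 99.5%, 100.3% and 122% in series 1, 2 and 3, Krt14 at 91.6%, 86.6% and 126%, and Krt15 at 240%, 206% and 179%, so Krt15 was above its forestomach signal on every series. The per-series medians of 23 cornified envelope genes averaged 61.2 ± 12.4% (SD, n = 3 series). These positions describe the stripes, and the share of squamous tissue in each was not measured.

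The corpus stripes carried a small signal for the forestomach keratins, and it varied by series. As a percentage of the forestomach signal of the same series, Krt1 stood at 6.96%, 2.56% and 3.81% in the corpus and Krt10 at 5.52%, 1.87% and 3.30%. Krt4 stood at 2.50%, 1.66% and 0.785%, and Krt13 at 3.47%, 1.54% and 1.21%. Krt80 stood at 10%, 2.34% and 6.73%, while Krt78 was level at 3.58%, 3.51% and 3.17%. On these brightest probe sets series 1 had the highest percentage for all 6 genes, but another Krt13 probe set gave 0.522%, 1.40% and 0.973%, with series 1 the lowest. The basal keratin Krt5 had corpus signals of 200.6, 78.1 and 170.0, so it was lowest on the second corpus array, as were the signals of Krt1, Krt10 and Krt80. Whether these signals come from squamous cells in the stripe or from probe background was not tested.

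**Figure D4:**
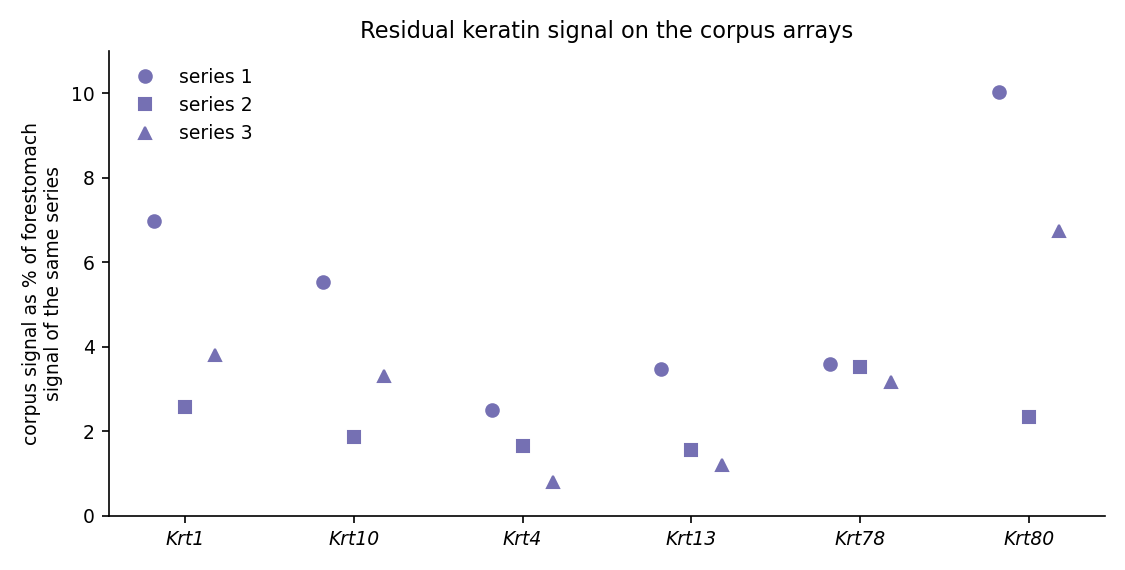
Corpus signal as a percentage of the forestomach signal of the same series (percent), for the brightest probe set of the 6 suprabasal keratins that were higher in the forestomach, with 1 marker per series. Values run from 0.785% (Krt4, series 3) to 10% (Krt80, series 1), and series 1 is highest for each of these probe sets, with Krt78 spanning 3.17% to 3.58%.

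By position in the genome the members belong to the type I keratin cluster on chromosome 11 (Krt10 and Krt13) and the type II cluster on chromosome 15 (Krt1, Krt4, Krt78, Krt79 and Krt80), in the GRCm38.p6 gene order. Krt4, Krt79 and Krt78 are direct neighbours, in that order, and the next gene after Krt78 is Krt8, a keratin of simple epithelia. So Krt79, with no called difference between forestomach and corpus, lies between a pair of genes that were 64.3-fold and 28.1-fold higher in the forestomach than in the corpus. Krt8 read 10923.0, 9934.9 and 10404.7 at the junction, 89.3, 681.6 and 625.0 in the forestomach and 12261.8, 12617.2 and 10063.2 in the corpus.

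The start regions of these genes are shown so that members of different groups by mean signal can be compared letter by letter, 250 bases before to 50 bases after the annotated start, as given by RefSeq on GRCm38.p6. Windows were at hand for 4 of the 7 genes. Each lies on the minus strand and is printed 5′ to 3′ as the gene reads. Capitals mark matches to any of 3 motifs, searched on both strands. The first motif is TATAAA, the core promoter box. The next is CACCC, which KLF factors of the epidermis are known to bind. The last is TGANTCA, the recognition site of AP-1 factors. No match overlapped another. Krt10 stands for the genes with much the same mean signal at junction and forestomach. Krt13 stands for those with a lower mean at the junction, although its own difference was not called on the probe set used in the tests. Krt78 and Krt79 are neighbours with opposite junction differences.
Krt10, chr11:99389315-99389614: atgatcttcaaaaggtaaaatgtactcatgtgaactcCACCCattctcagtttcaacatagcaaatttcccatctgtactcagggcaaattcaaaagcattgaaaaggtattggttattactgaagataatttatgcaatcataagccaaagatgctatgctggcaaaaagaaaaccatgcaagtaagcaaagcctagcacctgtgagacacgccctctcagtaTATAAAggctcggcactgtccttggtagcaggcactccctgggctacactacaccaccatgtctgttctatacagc
Krt13, chr11:100121517-100121816: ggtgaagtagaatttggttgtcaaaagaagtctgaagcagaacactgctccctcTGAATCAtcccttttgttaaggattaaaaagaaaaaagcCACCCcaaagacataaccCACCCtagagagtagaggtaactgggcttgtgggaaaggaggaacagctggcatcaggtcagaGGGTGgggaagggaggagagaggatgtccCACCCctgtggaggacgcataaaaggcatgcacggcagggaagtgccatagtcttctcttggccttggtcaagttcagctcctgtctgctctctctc
Krt78, chr15:101954238-101954537: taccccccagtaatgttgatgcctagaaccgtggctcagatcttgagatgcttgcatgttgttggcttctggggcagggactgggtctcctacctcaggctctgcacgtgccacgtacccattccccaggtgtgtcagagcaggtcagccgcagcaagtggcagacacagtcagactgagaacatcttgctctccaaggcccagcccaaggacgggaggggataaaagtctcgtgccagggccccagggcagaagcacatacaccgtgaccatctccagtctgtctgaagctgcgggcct
Krt79, chr15:101940275-101940574: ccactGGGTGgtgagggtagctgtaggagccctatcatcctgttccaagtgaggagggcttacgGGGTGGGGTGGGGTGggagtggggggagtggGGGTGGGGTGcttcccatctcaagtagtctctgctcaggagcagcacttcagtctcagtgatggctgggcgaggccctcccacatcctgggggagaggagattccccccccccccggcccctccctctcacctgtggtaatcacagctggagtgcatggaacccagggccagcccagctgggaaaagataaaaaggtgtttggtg

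The Krt10 window holds TATAAA, with its first base at position -26 from the start, and 1 CACCC. The Krt13 window holds no TATAAA, 4 CACCC and 1 TGANTCA. Krt13 has a second annotated start, at chr11:100120528-100120827, whose window holds 2 TGANTCA and 1 CACCC. The Krt79 window holds 6 CACCC, all read on the opposite strand and 5 of them with first bases at positions -186 to -150. In the Krt78 window none of the 3 motifs was found. Only exact matches were searched. Near matches to TATAAA, such as cataaa in the printed Krt13 window and gataaa in the Krt78 and Krt79 windows, are not marked or counted. Of all 32851 start windows in the same RefSeq table, 13.6% held TATAAA, 57.5% CACCC and 7.81% TGANTCA, so a CACCC match is common. A match is a string of letters in the window and was not tested as a binding site.

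The rest of the keratin family gives the setting. The array names 48 keratin genes, of which 32 were tested, 25 of them outside the suprabasal group. Among these 25, the forestomach was higher than the corpus for 11 and lower for 6, the junction was higher than the corpus for 10 and lower for 1, and the junction was higher than the forestomach for 11 and lower for 3. Krt82, counted as higher in forestomach than in corpus and as lower at the junction, passed the filter only through its forestomach arrays. Of all genes, 30.0% were called higher and 29.9% lower in forestomach than in corpus. The shares were 13.2% and 11.8% for junction over corpus, and 21.5% and 23.1% for junction over forestomach. The 3 basal keratins were higher at the junction and in the forestomach than in the corpus, and none was called between junction and forestomach. Krt14, for instance, read 5108.6, 5865.7 and 7173.7 at the junction, 5570.9, 6769.4 and 5718.7 in the forestomach and 66, 32 and 73.7 in the corpus.

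Krt79 was 1 of 6 keratins called above both neighbouring zones at the junction. The others were the stress keratins Krt6a, Krt6b, Krt16 and Krt17, which wounded or hyperproliferative epidermis makes, and Krt7, a keratin of simple and ductal epithelia. Krt6a read 1375.5, 2236.8 and 1854.8 at the junction, 70.5, 139.6 and 141.1 in the forestomach and 100, 53.6 and 56.9 in the corpus. Between forestomach and corpus, Krt79 was not called, and neither were Krt6a (limma adjusted p = 0.0994) and Krt16 (limma adjusted p = 0.0530), while Krt6b, Krt17 and Krt7 were called higher in the forestomach.

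**Figure D5:**
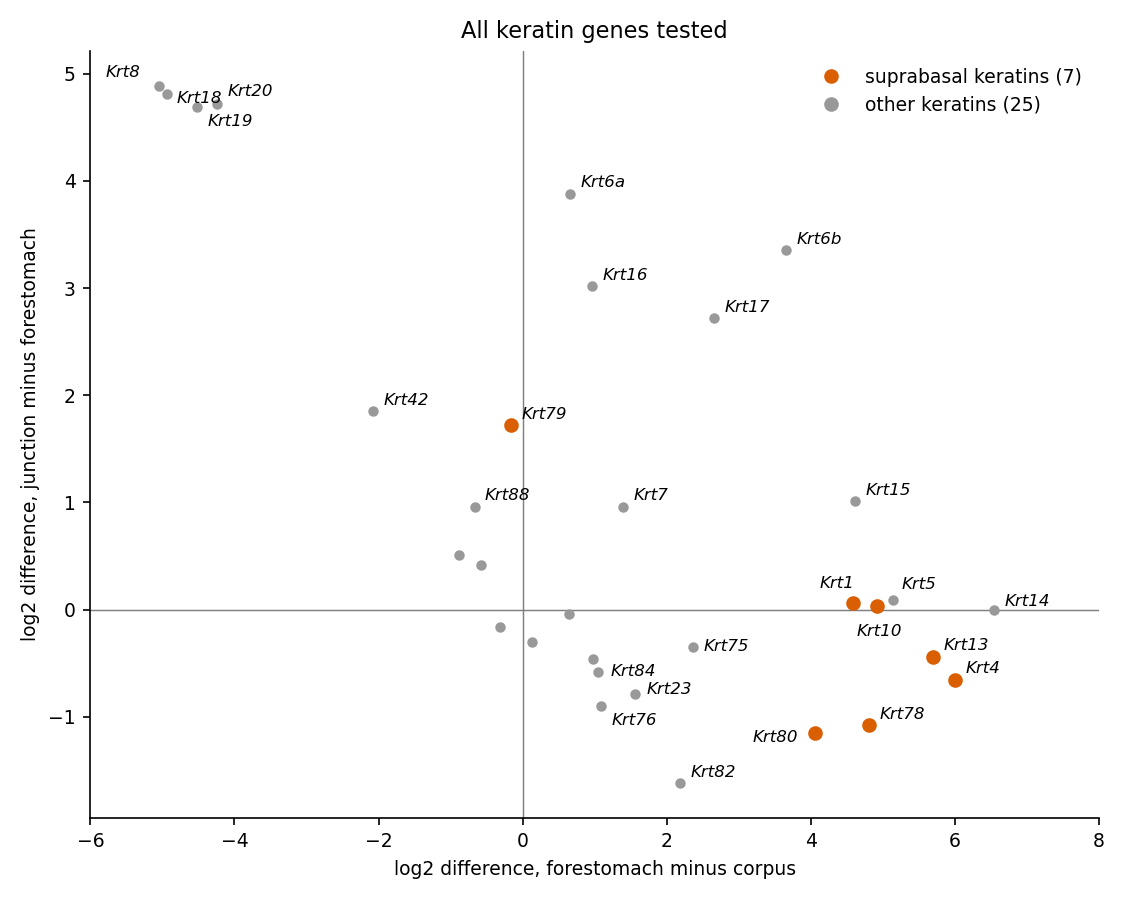
All 32 keratin genes tested, by the log2 difference of forestomach minus corpus (x axis) and of junction minus forestomach (y axis), with the 7 suprabasal keratins in orange and 25 others in grey. Krt1 and Krt10 lie beside the basal keratins Krt5 and Krt14 near 0 on the y axis, Krt78 and Krt80 lie below, and Krt79 lies at -0.15 and 1.72.

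Keratins are anchored at desmosomes, and of 18 desmosome and keratin anchor genes tested 14 were higher, 3 lower and 1 not called in forestomach over corpus (median log2 difference 2.43). At the junction over the corpus 14 were higher and 2 lower (median 1.86). Junction against forestomach gave 3 higher, 10 lower and 5 not called (median -0.56). The shares of all genes called higher and lower were 30.0% and 29.9% for forestomach over corpus. For junction over corpus they were 13.2% and 11.8%, and for junction over forestomach 21.5% and 23.1%. The largest forestomach excesses were those of Dsc1, a desmosomal cadherin of upper epidermal layers, at 6.99, the plaque protein Pkp1 at 6.86, the cadherin Dsg1b at 5.65 and the cadherin Dsc3 at 5.53, all log2 differences called by limma. The 3 genes lower in the forestomach were Pkp2, Dsg2 and Dsc2, at -2.40, -3.69 and -2.51, the isoforms known from simple epithelia and heart, and the same 3 were higher at the junction than in the forestomach; they were named after their values were seen.

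The cornified envelope list holds proteins crosslinked under the membrane of dying squamous cells, together with enzymes and other proteins of squamous cells. Of its 25 genes tested, 24 were higher and 1 lower in forestomach than in corpus (median log2 difference 6.11). Over the corpus, the junction was higher for 24 and not called for 1 (median 5.21). Against the forestomach, the junction was higher for 1, lower for 12 and not called for 12 (median -0.65). Hrnr at 7.65, Casp14 at 7.55, Lce3c at 7.47 and Lce1c at 7.22 had the largest forestomach minus corpus log2 differences past the test. The exception in both forestomach comparisons, named after its values were seen, was Sprr2f, a small proline-rich protein, with a forestomach minus corpus log2 difference of -2.70 and a junction minus forestomach difference of 2.26.

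Squamous transcription factors, 25 tested, were higher for 19, lower for 1 and not called for 5 in forestomach over corpus (median log2 difference 2.51), led by Hopx at 5.77, Trp63, the master factor of stratified epithelia, at 5.61, Grhl3 at 5.33 and Tfap2c at 4.74. At the junction 19 were higher than in the corpus and 6 not called (median 1.38). Against the forestomach, the junction was higher for 2, lower for 16 and not called for 7 (median -0.74). Barx2, 1 of these 16 and also named after its values were seen, passed the filter only through its forestomach arrays. Its direction was therefore set by that selection. Those higher at the junction than in the forestomach, named after their values were seen, were Elf3 at 3.28 and Grhl2 at 0.52. The all-gene medians and the shares of all genes called, given above, apply to these lists, whose members were chosen with results of these data known.

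The genes whose course over the 9 arrays was most like that of each member were found by the root mean square difference of log2 values centred on each gene's own mean, which is small for a like course. Krt1 was closest to Krtdap, a secreted keratinocyte protein, at 0.09, to Lor, the envelope protein loricrin, at 0.21 and to Krt5 at 0.32. Krt10 was closest to the same 3 genes, with Krtdap at 0.15, Krt5 at 0.19 and Lor at 0.28, and Krt1 and Krt10 differed from each other by 0.17. The junction minus forestomach log2 difference of these neighbours was -0.26 for Lor, -0.07 for Krtdap and 0.09 for Krt5.

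Krt4 was closest to the late cornified envelope genes Lce1a1 (0.30) and Lce1d (0.31) and to suprabasin, Sbsn (0.31), all further than its partner Krt13 (0.21). Krt13 was closest to Asprv1, a protease that processes filaggrin (0.19), dermokine, Dmkn (0.23), and Lypd3 (0.24). Krt78 was closest to the lipase Lipk (0.15), Hebp2 (0.17) and periplakin, Ppl (0.18), a linker between desmosomes and keratin filaments that read 1279.2, 1914.9 and 1982.3 at the junction, 3949.2, 4016.0 and 3903.6 in the forestomach and 165.7, 122.6 and 132.3 in the corpus. Krt80 was closest to Pnpla1, an enzyme of skin barrier lipids (0.15), Casp1 (0.26) and Tprg (0.29).

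Krt79 had no member near it, Krt80 being the closest of them at 1.79. Its nearest genes were Wfdc2, a secreted protein of glandular and ductal epithelia (0.22), the apelin receptor Aplnr (0.22) and Gabrp, a GABA receptor subunit of epithelia (0.23). Wfdc2 read 1333.9, 1190.2 and 1313.6 at the junction, 272.3, 281.0 and 320.5 in the forestomach and 357.4, 364.8 and 482.7 in the corpus. All 9 arrays enter this measure, the zones set most of it, and it says nothing about shared control.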

How the data were processed

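The deposited table holds 1 intensity per probe set and array, which the authors made with MAS5, per the submitters' processing notes. Which MAS5 version was run, and how, is not stated in the sources at hand, and no detection calls were used. The values are linear signals. The trimmed mean of each array, leaving out 2% at each end, was 200. Of 45101 probe sets, 34958 carry 1 gene symbol, 932 several and 9211 none in the platform annotation of 2016, and 34754 symbols were updated by Entrez ID to GRCm38.p6.

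Control probe sets (64) were removed, log2(signal + 9.9) was taken, and a probe set was kept if it was above the 40th percentile of its array (29.0 to 36.5) on at least 3 arrays. Of the kept probe sets with 1 symbol (24870), the brightest stood for its gene, giving 13637 genes. One mean per zone was fitted over all 9 arrays with limma 3.58.1 in R 4.3.3 (6 residual degrees of freedom plus 2.57 from the prior), with Benjamini-Hochberg adjustment over all genes and a threshold of 0.05. Tables were made with Python 3.11.15 and pandas 2.3.3, and exact permutation tests with scipy 1.17.1. Array number and brightness limit the precision.

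Series numbers mark shared animals, per the series design. In a check of same-series pairs of arrays, 9 in all, the correlations of deviations from the zone means ran from -0.029 to 0.12, and the block by series was tried as an alternative. Further alternatives were other pseudocounts, filters, normalizations, probe set rules, variance models and arrays left out, 23 in all. The 7 members, every keratin, up to 4 genes per list with the largest forestomach difference past the threshold, and the 3 genes most like each member could be named. The members and lists were chosen with earlier results of these data known.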

Additional observations from a re-analysis of the deposited data

How the results depend on the processing

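Under all 23 alternatives, 6 of the 7 keratins were called for forestomach against corpus and 7 for junction against corpus. For junction against forestomach the number called was 3, and ran from 2 to 4. With the series number as a replicate block the counts were 6, 7 and 2. The block ended the Krt80 call (limma adjusted p = 0.0531) and changed no other member's call. The junction minus forestomach difference of Krt10 turned to -0.014 under quantile normalization. It ran from -0.051 to 0.079, and that of Krt1 from -0.025 to 0.15, over the fits that left out arrays, and both were below 0 without the third junction array and without series 3 (-0.022 for Krt1 and -0.045 for Krt10). The cause was not tested. The count of all genes called was 3407 for junction against corpus and ran from 1229 to 3320 over the fits that left out arrays, with 2234 without the third junction array and 2031, 1229 and 1318 without series 1, 2 and 3. For junction against forestomach it was 6079 and ran from 3950 (without series 1) to 5982. Without a series, 2 arrays per zone remain. The pair balance kept its direction under all 17 alternatives run, at 0.47 to 0.79 for junction minus forestomach, -1.44 to -0.75 for forestomach minus corpus and -0.84 to -0.15 for junction minus corpus. In both comparisons with the corpus the most negative value came without the second corpus array, and the least negative without the third corpus array or without series 3. No detection calls were used, so none of the dim corpus signals can be called present or absent.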

Other observations

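The keratins outside the suprabasal group that were lower at the junction than in the forestomach were Krt23, Krt76 and Krt82. Krt23, a type I keratin, read 1657.8, 2083.8 and 2214.2 at the junction, 3359.5, 3781.4 and 3096.4 in the forestomach and 1189.5, 1062.4 and 1207.4 in the corpus, so it kept a clear signal in the glandular stripe. Krt76, a type II keratin of oral epithelium and the gene next to Krt4, read 54.1, 45.9 and 50 at the junction, 95.4, 96.2 and 114.9 in the forestomach and 47.9, 43.3 and 37.6 in the corpus. Krt82, known from the hair cuticle, read 14.2, 5.9 and 14.0 at the junction, 72.3, 41.6 and 52.3 in the forestomach and 1.9, 3.4 and 8.0 in the corpus. Junction minus forestomach differences passed the test for all 3, at -0.78 (limma adjusted p = 0.00152), -0.90 (limma adjusted p = 0.000312) and -1.62 (limma adjusted p = 0.000731) on the log2 scale. Krt76 and Krt82 are dim, with some or all of their values near or below the array medians. Krt82 was above the filter level only on its 3 forestomach arrays. The direction of its junction difference was therefore set by that selection, and its call is not read as a result.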
